A study of Homo sapiens with 60 samples.

Results

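The comparison described here set HT29 cells treated with an extract of Longan Arillus against HT29 cells treated with an extract of Zizyphi Semen, both at the high dose of 500 µg/mL for 24 h. HT29 is an established human colorectal adenocarcinoma line with an epithelial character. Longan Arillus is the fleshy aril of the longan fruit and Zizyphi Semen is the seed of a jujube, and both are herbal materials that were extracted with ethanol. The 6 libraries were all those labelled with either extract at the high dose, 3 for each, out of 60 libraries and 25 groups in the series. Both extracts belong to library set 10, so this comparison lies within a single set. The same extracts at 100 µg/mL (medium dose) and 20 µg/mL (low dose), with 3 libraries per group, and 3 vehicle libraries are used for context. The vehicle was 0.1% DMSO in the sample labels and 2% DMSO in the series description, the vehicle libraries carry another set name, and the amount of DMSO in the extract cultures is not given in the sources used here. Nothing in the labels says whether the 3 replicates of a group were separate cultures, so the p-values measure the spread between these libraries, which may be technical.

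The libraries, made with a directional mRNA kit, were read as paired ends of 100 bp, and the deposited values were estimated counts per gene. The Longan high libraries held 26910883, 26929240 and 21230976 counts and the Zizyphi high libraries 19495782, 28871067 and 25724418. All 17 colon epithelium markers were detected in both groups, with a summed level of 13755 to 14394 CPM (counts scaled to a common library size) in Longan high and 14361 to 14723 CPM in Zizyphi high. Fibroblast, endothelial and erythroid markers summed to at most 2.81 CPM in either group, and hepatocyte markers, nearly all SERPINA1, to 296 to 339 CPM in Longan high and 308 to 326 CPM in Zizyphi high. The leukocyte list summed to 1417 to 1463 CPM in Longan high and 1395 to 1455 CPM in Zizyphi high, nearly all of it LYZ, with 7 of its 12 genes at 0 in both groups. Transcripts of the mitochondrial genome took 9.36% to 11.4% of the counts in Longan high and 11.3% to 13.2% in Zizyphi high, and the part of this difference in the results below was not tested. Genes with coding sequences of 6000 bases or more were compared with genes under 1000 bases in each library, as a log2 difference from the mean of the 21 libraries. This measure was -0.367, -0.246 and -0.090 in the Longan low libraries and 0.014 to 0.095 in the 6 high dose libraries. Longan low replicates 1 and 2 stood apart, whereas replicate 3 was near Zizyphi medium replicate 2 at -0.069 and the vehicle libraries at 0.046, -0.118 and -0.146. Every comparison below that uses Longan low or vehicle rests on these libraries.

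Several of the proteins met below are very long coiled-coil proteins, rod-shaped molecules that span distances inside the cell. Golgins such as those encoded by GOLGA4 and GOLGB1 tether vesicles to the Golgi apparatus, AKAP9 and CEP290 belong to the centrosome and the base of the cilium, and CENPE is a motor that links kinetochores to spindle microtubules during mitosis. TXNIP encodes a thioredoxin-interacting arrestin that limits glucose uptake and whose transcription follows glucose supply. ABCG1 encodes a cholesterol exporter and is a standard target of the liver X receptors (LXR), and SELENOW encodes a small selenoprotein.

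At 500 µg/mL the main fit told few genes apart between the 2 extracts, with 3 libraries each. Of 16100 genes tested, 10 differed at an adjusted p under 0.05 (0.0621% of the genes tested; edgeR quasi-likelihood test, Benjamini-Hochberg adjustment over all genes tested), and such genes are named called below. Of these, 9 were higher in Longan high (0.0559%) and 1 was lower (0.00621%). The median absolute log2 fold change over all genes was 0.065, and 762 genes (4.73%) had an unadjusted p under 0.05. DESeq2 called 13 genes, among them all of the 10 except CEP290, and in addition CENPF, SCD, BOD1L1 and KLK10. In 1074 genes (6.67%) all 3 Longan high libraries lay above all 3 Zizyphi high libraries, and in 979 genes (6.08%) all 3 lay below. Without the filter on low counts 115 genes were called, 51 higher and 64 lower in Longan high, including all 10. With the spread estimated from 54 libraries 4 genes were called, and without Zizyphi high replicate 1 the number was 6. Fitted on the 6 high dose libraries alone, 15 of 15169 genes were called, 11 higher and 4 lower in Longan high. In that fit 1146 genes had an unadjusted p under 0.05.

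**Figure D1:**
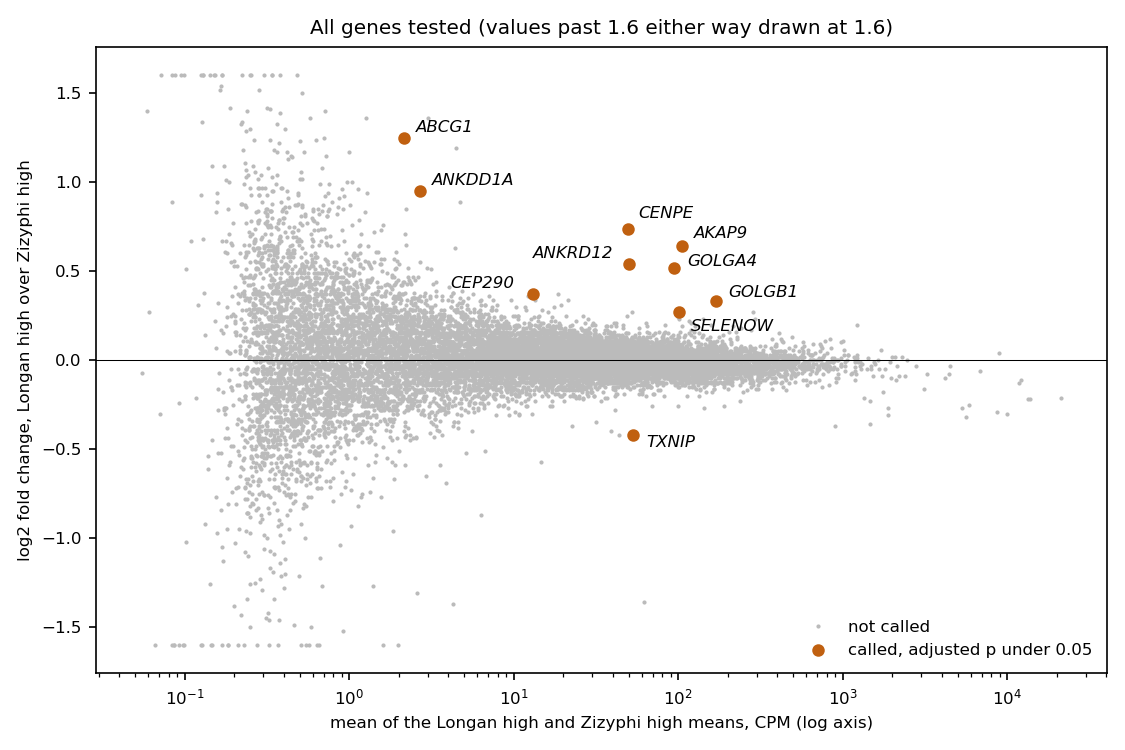
Each point is 1 of the genes tested, with its mean level in the high dose libraries on a log axis in CPM and its log2 fold change, Longan high over Zizyphi high. The 10 called genes are labelled, and 9 of them lie above 0.

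The main group of called genes was 6 genes for very long proteins, all of them higher in Longan high. CENPE had 58.7, 64.2 and 62.8 CPM in Longan high, against 33.7, 38.6 and 38.8 CPM in Zizyphi high. Every Longan library was well above every Zizyphi library, and the log2 fold change was 0.74 ± 0.09 (SE; adjusted p = 0.000322, edgeR). AKAP9, which anchors protein kinase A and nucleates microtubules at the centrosome and Golgi, had 116, 133 and 134 CPM in Longan high and 71.3, 85.6 and 88.5 CPM in Zizyphi high. Its groups did not overlap, and it differed by 0.64 ± 0.10 on the log2 scale (adjusted p = 0.00308, edgeR). Without Zizyphi high replicate 1 its adjusted p was 0.0532, and with 54 libraries 0.181. In these bulk libraries a change in the share of cells that express a gene and a change in RNA per cell cannot be told apart.

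The 2 golgins showed the same direction. GOLGA4, a golgin of the trans-Golgi, had 110, 110 and 116 CPM in Longan high, against 71.8, 80.5 and 81.1 CPM in Zizyphi high, a log2 fold change of 0.52 ± 0.07 (adjusted p = 0.000819, edgeR). GOLGB1, the giant golgin giantin, had 183, 185 and 196 CPM in Longan high and 137, 156 and 156 CPM in Zizyphi high. The gap between its groups was smaller, at 0.33 ± 0.06 (adjusted p = 0.014, edgeR), and the call was lost without Zizyphi high replicate 1 (adjusted p = 0.203), without Longan high replicate 2 (0.0572), without Longan high replicate 3 (0.147) and with 54 libraries (1).

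ANKRD12, an ankyrin-repeat corepressor of nuclear receptors, had 56.3, 59.6 and 61.6 CPM in Longan high, against 39.4, 40.4 and 42.6 CPM in Zizyphi high. Its groups did not overlap, and the log2 fold change was 0.54 ± 0.08 (adjusted p = 0.0054, edgeR). The call was lost without Zizyphi high replicate 1 (adjusted p = 0.0662), Zizyphi high replicate 2 (0.0607) or Longan high replicate 3 (0.0547), and with 54 libraries (1). CEP290 was the weakest call, with 15.1, 15.2 and 14.2 CPM in Longan high and 11.4, 10.4 and 12.8 CPM in Zizyphi high (0.37 ± 0.07, adjusted p = 0.0429, edgeR). Its groups did not overlap, but its adjusted p was above 0.05 in 11 of 14 alternative fits.

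These 6 genes were grouped by length after they were called, so their shared length follows from the grouping. Their coding sequences are also rich in adenine, which the calls did not use. The other called genes had less adenine, at 25.8% in TXNIP, 20.3% in ABCG1, 20.6% in ANKDD1A and 23.1% in SELENOW. The 6 long genes were also low in G and C together, at 35.1% (CEP290) to 41.4% (GOLGB1). In the other called genes G and C made up 49.3% (TXNIP) to 60.1% (ANKDD1A). Adenine content and GC content were not separated here. The 6 long genes are shown by 90 bases from the centre of each coding sequence (GENCODE release 29, GRCh38), with every adenine in capitals. The stretches lie at chr4:103147395-103147484 (minus strand) for CENPE, chr3:37325139-37325228 (plus strand) for GOLGA4, chr7:92062297-92062386 (plus strand) for AKAP9, chr18:9256316-9256405 (plus strand) for ANKRD12, chr3:121695576-121695665 (minus strand) for GOLGB1 and chr12:88089302-88089391 (minus strand) for CEP290.
CENPE: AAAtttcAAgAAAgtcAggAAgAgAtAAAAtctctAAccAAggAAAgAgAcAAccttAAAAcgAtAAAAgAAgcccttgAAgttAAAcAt
GOLGA4: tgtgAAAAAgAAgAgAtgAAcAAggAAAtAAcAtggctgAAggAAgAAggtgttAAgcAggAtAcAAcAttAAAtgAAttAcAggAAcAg
AKAP9: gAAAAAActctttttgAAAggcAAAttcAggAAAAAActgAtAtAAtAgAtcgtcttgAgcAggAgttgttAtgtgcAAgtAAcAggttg
ANKRD12: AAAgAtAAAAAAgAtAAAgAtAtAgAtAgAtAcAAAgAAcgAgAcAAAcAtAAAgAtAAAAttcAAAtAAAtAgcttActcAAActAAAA
GOLGB1: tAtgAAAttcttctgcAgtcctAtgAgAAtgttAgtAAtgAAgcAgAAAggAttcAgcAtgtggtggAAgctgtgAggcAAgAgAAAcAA
CEP290: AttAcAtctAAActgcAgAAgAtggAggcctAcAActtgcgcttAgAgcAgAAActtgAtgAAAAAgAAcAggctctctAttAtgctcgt
Between 31 and 55 of the 90 bases were adenine in these stretches. Over the whole coding sequence, adenine made up 42.1% in CENPE, 40.5% in GOLGA4, 39.1% in AKAP9, 40.2% in ANKRD12, 37.6% in GOLGB1 and 42% in CEP290, against a median of 25.9% over 10040 genes at 5 CPM or more. The coding lengths ran from 6186 bases in ANKRD12 to 11730 bases in AKAP9, against a median of 1431 bases.

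Genes that were both long and rich in adenine had higher fold changes, Longan high over Zizyphi high, than genes that were only long. Among the 10040 genes, 22 had a coding sequence of 6000 bases or more with at least 35% adenine. Their median log2 fold change was 0.118, and in 14 of them (63.6%) all Longan high libraries lay above all Zizyphi high libraries, against 6.85% of all 10040. All 6 called long genes are among these 22. The 35 genes of 4000 to under 6000 bases with as much adenine had a median of 0.097 and 22 such genes (62.9%), and none of them was called. The 89 genes of 6000 bases or more with under 25% adenine had a median of -0.011 and 8 such genes (8.99%). Among short genes, under 2000 bases, the 292 with at least 35% adenine had a median of 0.022 and 44 such genes (15.1%). Adenine alone was measured in each library as the median of genes with at least 35% adenine less that of genes under 20%. As a log2 difference from the mean of the 21 libraries, this was -0.006, -0.044 and 0.070 in Longan high and -0.069, -0.059 and -0.065 in Zizyphi high. The Longan high value of 0.070 is from replicate 3, and the vehicle libraries spanned -0.153 to 0.168. The bounds were set after the called genes were seen, so these counts describe the genes and test nothing. Across the 10040 genes, which share their libraries, Spearman's rho between adenine content and the log2 fold change was 0.27, and between coding length and the fold change 0.07. At the medium dose, in other libraries, the same values were -0.02 and 0.19.

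**Figure D2:**
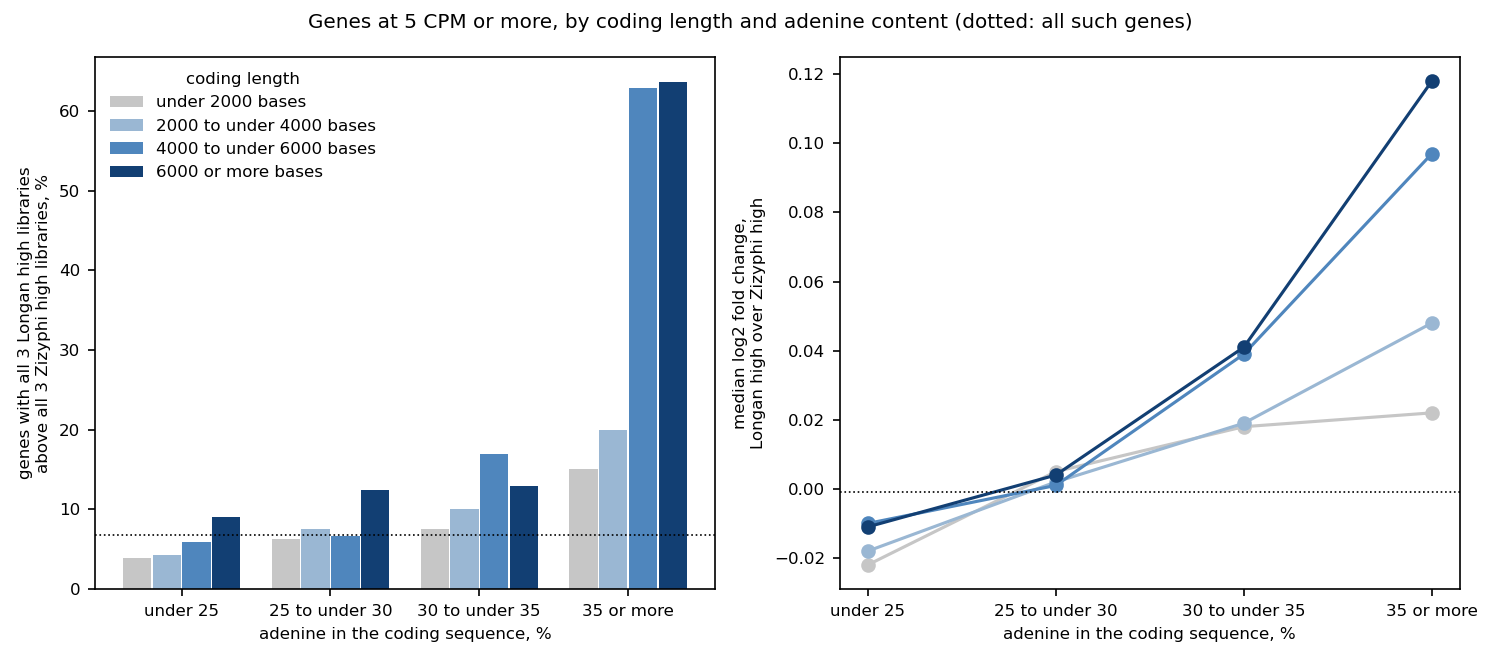
The left panel gives the percentage of genes whose Longan high libraries all lay above the Zizyphi high libraries, and the right panel the median log2 fold change, Longan high over Zizyphi high, in classes of coding adenine (horizontal axis, %) and coding length (colours). The 2 classes of long genes with at least 35% adenine stand at 62.9% and 63.6%, against 6.85% over all genes at 5 CPM or more (dotted).

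A list of 40 genes, named for giant coiled-coil and centrosomal proteins, was chosen with these results known and so is no independent evidence of a direction. It had 6 genes called higher and 0 called lower in Longan high. The 6 are the long genes above, among them ANKRD12, described above as an ankyrin-repeat corepressor. Over all genes tested, 0.0559% were called higher. In 23 of the 40 all Longan high libraries lay above all Zizyphi high libraries, against 6.67% of all genes, in 0 the reverse, against 6.08%, and the median log2 fold change was 0.11, against 0.003 over all genes tested, and at the medium dose it was 0.022. CENPF, a kinetochore protein, was just past the threshold at 0.27 ± 0.05 (adjusted p = 0.0679, edgeR), with 307, 305 and 323 CPM in Longan high and 242, 266 and 268 CPM in Zizyphi high. Of the other golgin genes on the list, GCC2 had a log2 fold change of 0.22 ± 0.07 and TRIP11 one of 0.20 ± 0.08, neither called. Among large coiled-coil proteins with 26.5% and 25.8% adenine in the coding sequence, MYH9, a non-muscle myosin, had 878 CPM in Longan high and 902 CPM in Zizyphi high, and NUMA1, a spindle pole protein, 448 CPM in Longan high and 456 CPM in Zizyphi high. The members of the list lay between -0.11 and 0.74. Values near 0 also occurred among the 22 long genes with at least 35% adenine, with 0.03 for BRCA2 and MKI67 and 0.05 for BDP1 and PCM1. Those 22 genes ran from 0.03 to 0.74.

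CENPE and CENPF were also the 2 most different of 32 genes of mitosis. That list had 1 gene called higher (CENPE), 0 called lower and a median of -0.022, with 6 genes higher and 5 lower without overlap. Over all genes tested, 0.0559% were called higher, and 6.67% were higher and 6.08% lower in Longan high without overlap. MKI67, a marker of cycling cells, averaged 1093 CPM in Longan high and 1073 CPM in Zizyphi high, and TOP2A, a topoisomerase of dividing cells, 493 CPM in Longan high and 487 CPM in Zizyphi high. The 39 genes of DNA replication had 0 called and a median of -0.029, with 0 higher and 3 lower in Longan high without overlap.

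TXNIP was the only gene called lower in Longan high and had the smallest p. It had 46.7, 45.7 and 44.3 CPM in Longan high, against 62.3, 60.1 and 60.8 CPM in Zizyphi high. The libraries of each extract lay within a few CPM of each other, and the log2 fold change was -0.42 ± 0.04 (adjusted p = 1.18e-05, edgeR). The vehicle libraries lay between the extracts, with 54.7, 54 and 50.4 CPM. TXNIP stayed called in all 14 alternative fits, between -0.44 and -0.40.

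The TXNIP promoter is shown because it carries the element through which the glucose-sensing factors MondoA and ChREBP are known to act on this gene. The 300 bases at chr1:145996530-145996829 (minus strand; RefSeq, GRCh38.p14) run from 250 before to 50 after the start of transcription, with the 2 half-sites of the carbohydrate response element in capitals. Of 2 TXNIP windows in the RefSeq table, the one that holds this element was chosen.
TXNIP: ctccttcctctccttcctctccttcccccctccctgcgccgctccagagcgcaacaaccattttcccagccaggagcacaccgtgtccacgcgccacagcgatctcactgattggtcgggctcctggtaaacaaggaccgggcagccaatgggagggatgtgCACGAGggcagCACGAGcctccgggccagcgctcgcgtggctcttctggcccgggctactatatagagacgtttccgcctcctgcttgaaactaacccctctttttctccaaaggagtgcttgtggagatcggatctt
The motif searched, 2 copies of CACGNG with 5 bases between them on both strands, occurs 1 time here and in 20 of 35116 RefSeq promoter windows of this length (0.057%). CCAAT boxes, searched on both strands as CCAAT, occur 2 times here and in 34.6% of the windows. A match describes the sequence and does not show that the site was used.

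The other genes of the glucose-sensing and arrestin domain list were not called: 8 of its 10 genes were tested, with 0 called higher, 1 called lower (TXNIP) and a median of -0.105. Over all genes tested, 0.00621% were called lower. Of the 8 genes, 0 were higher (6.67% of all genes) and 2 were lower (6.08% of all genes) in Longan high without overlap. ARRDC4, a paralog of TXNIP with a similar element in its regulation, had 7.05, 7.95 and 6.90 CPM in Longan high and 7.64, 8.95 and 9.62 CPM in Zizyphi high. These groups overlapped, and the log2 fold change was -0.26 ± 0.11 (adjusted p = 0.972, edgeR). ARRDC3 had a log2 fold change of -0.03, ARRDC2 one of 0.07, the zinc finger gene KLF10 one of -0.10, G6PC3 one of -0.11 and FBP1, of gluconeogenesis, one of 0.00. MLXIPL, which encodes ChREBP, was hardly detected, at 0.301 CPM in Longan high and 0.484 CPM in Zizyphi high.

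ABCG1 showed the largest called fold change. It had 2.96, 3.42 and 2.65 CPM in Longan high, against 1.29, 1.22 and 1.31 CPM in Zizyphi high, which is a fold of 2.38 and a log2 fold change of 1.25 ± 0.17 (adjusted p = 0.000819, edgeR). The groups were far apart for so low a level, the vehicle libraries had 2.48 to 2.51 CPM, and the gene stayed called in all 14 alternative fits. Among the 7 tested LXR targets 1 was called higher (ABCG1; 0.0559% of all genes) and 0 lower, 3 were higher in Longan high without overlap (6.67% of all genes) and 0 the reverse, and the median was 0.136. ABCA1, the partner exporter of cholesterol, had 5.82, 5.46 and 5.85 CPM in Longan high and 5.26, 4.30 and 4.32 CPM in Zizyphi high (0.31 ± 0.12, adjusted p = 0.972, edgeR). SREBF1, the regulator of fatty acid synthesis, had 155, 148 and 141 CPM in Longan high and 133, 139 and 132 CPM in Zizyphi high (0.14 ± 0.06, not called). MYLIP, a ubiquitin ligase of the LDL receptor, had a log2 fold change of 0.25 ± 0.12, the receptor gene NR1H3 one of 0.06 ± 0.06, SMPDL3A one of -0.03 ± 0.13 and LPCAT3, a phospholipid acyltransferase, one of -0.01 ± 0.05, and none of these was called.

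The genes of fatty acid synthesis lay slightly higher in Longan high without a call. Of 14 tested, 0 were called, 6 were higher in Longan high without overlap (6.67% of all genes), 0 were lower without overlap (6.08% of all genes), and the median was 0.095. SCD, the desaturase that makes oleic acid, had 1316, 1329 and 1302 CPM in Longan high, against 1121, 1169 and 1135 CPM in Zizyphi high. Its groups did not overlap and its adjusted p was 0.0718 (0.20 ± 0.04, edgeR). The 26 genes of cholesterol synthesis had 0 called and a median of -0.022.

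SELENOW was called higher in Longan high by a small step. It had 108, 111 and 110 CPM in Longan high, against 90.5, 89.3 and 93.3 CPM in Zizyphi high (0.27 ± 0.04, adjusted p = 0.00285, edgeR). The first 60 bases of its coding sequence are shown because codon 13, in capitals, is the in-frame TGA read as selenocysteine (GENCODE release 29, GRCh38, plus strand; the stretch spans 2 introns between positions 47778786 and 47780869 of chromosome 19).
SELENOW: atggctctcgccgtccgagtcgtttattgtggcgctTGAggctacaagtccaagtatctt
With a longest coding sequence of 264 bases and 23.1% adenine, SELENOW is unlike the 6 long genes. A list of selenoproteins was added after SELENOW had been seen. Of 20 tested, 1 was called higher (SELENOW) and 0 lower, 6 were higher (6.67% of all genes) and 1 was lower (6.08% of all genes) in Longan high without overlap, and the median was 0.034. SELENOH, a nucleolar selenoprotein, had 48.9, 52.8 and 56.9 CPM in Longan high and 47.2, 44.2 and 41.9 CPM in Zizyphi high (0.25 ± 0.06, not called). GPX1, the cytosolic glutathione peroxidase, had 135, 141 and 130 CPM in Longan high and 114, 122 and 120 CPM in Zizyphi high (0.19 ± 0.05, not called). GPX4, the peroxidase of membrane lipids, had a log2 fold change of -0.10 ± 0.10.

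The tenth called gene, ANKDD1A, encodes a protein with ankyrin repeats and a death domain and was named after its values were seen, because it was called. Its level was below 5 CPM, as was that of ABCG1. It had 3.49, 3.23 and 3.89 CPM in Longan high, against 1.75, 1.90 and 1.78 CPM in Zizyphi high. The groups were clearly apart, and the log2 fold change was 0.95 ± 0.14 (adjusted p = 0.00308, edgeR).

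No target of the aryl hydrocarbon receptor, the sensor of planar aromatic compounds, was called between the extracts. Of 9 tested, 2 (CYP1A1 and CYP1B1) were higher in Longan high without overlap, where 6.67% of all genes were, and the median was 0.058. CYP1A1, the most responsive target, had 2.10, 1.63 and 1.51 CPM in Longan high, 1.19, 1.00 and 1.03 CPM in Zizyphi high, and 0.474, 0.334 and 0.687 CPM with vehicle (0.72 ± 0.24 between the extracts, adjusted p = 0.813, edgeR). CYP1B1 had 70.3, 66.0 and 70.0 CPM in Longan high and 59.4, 58.4 and 60.4 CPM in Zizyphi high (0.21 ± 0.05, adjusted p = 0.318, edgeR). The remaining log2 fold changes were 0.34 for IL1R2, 0.14 for ALDH1A3, 0.06 for NQO1, 0.04 for AHRR, 0.00 for NFE2L2, -0.01 for TIPARP and -0.04 for SLC7A5. Against vehicle, where the library set differs too, CYP1B1 was called higher in Longan high (0.57 ± 0.05) and in Zizyphi high (0.36 ± 0.05). From low to high dose CYP1B1 was called higher with Zizyphi (0.31 ± 0.05) and, resting on the Longan low libraries, with Longan (0.55 ± 0.05). CYP1A1 was called against vehicle in Longan high (1.80 ± 0.26) and just missed the threshold in Zizyphi high (1.08 ± 0.28, adjusted p = 0.0509, edgeR). From low to high dose CYP1A1 was called with Longan (1.87 ± 0.27), resting on the Longan low libraries. With Zizyphi it was not called (1.11 ± 0.28, adjusted p = 0.227, edgeR).

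Some lists leaned one way without any called gene. Over all genes tested 6.67% were higher and 6.08% lower in Longan high without overlap. Of 35 interferon response genes 8 were higher and 1 was lower in this way, with a median of 0.062, and OAS1, an RNA sensor of that response, had 20.5 CPM in Longan high and 17.9 CPM in Zizyphi high. Of 22 genes of endoplasmic reticulum chaperones, 0 were higher and 10 were lower in Longan high without overlap, where 6.08% of all genes were lower. Their median was only -0.047, and HSPA5, the main chaperone of that compartment, had 436 CPM in Longan high and 471 CPM in Zizyphi high (-0.11 ± 0.04, not called). All 13 respiratory chain genes of the mitochondrial genome had a negative log2 fold change, between -0.37 and -0.13, and 4 of them did not overlap. None was called, and MT-ND1 had a log2 fold change of -0.32 ± 0.14. At the medium dose the median of these 13 genes had the other sign, at 0.156, against -0.253 at the high dose. The 42 nuclear genes of the respiratory chain had a median of 0.020, the 74 genes of cytosolic ribosomal proteins one of 0.021 and the 31 proteasome genes one of 0.019, each with 0 called. Among 28 NRF2 targets 0 were called, and AKR1C1, an aldo-keto reductase, had 20.7, 18.3 and 19.3 CPM in Longan high and 16.0, 15.6 and 15.7 CPM in Zizyphi high (0.30 ± 0.07, adjusted p = 0.298, edgeR).

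**Figure D3:**
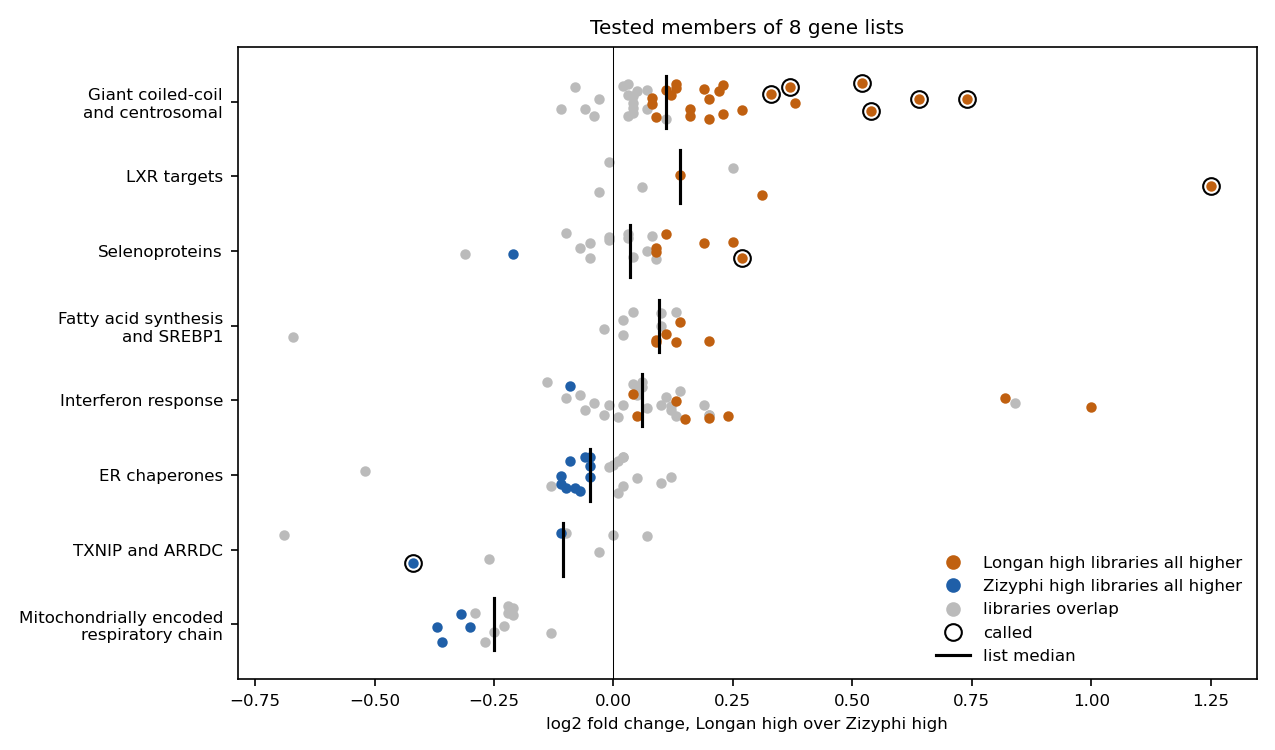
Each point is 1 tested gene of the list on the vertical axis, placed by its log2 fold change, Longan high over Zizyphi high. Called genes are ringed, bars mark list medians, and the colours show where the libraries of the 2 extracts do not overlap, as in 23 of the 40 genes of the giant coiled-coil and centrosomal list.

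At the medium dose the main fit called fewer genes between the extracts than at the high dose. Of 16100 genes 0 (0%) were called by edgeR and 1 by DESeq2, and 566 (3.52%) had an unadjusted p under 0.05. Of the 10 genes called at the high dose, 9 had the same sign at the medium dose, in other libraries, which were part of the same fit and its estimate of spread. Most of these values were near 0: 0.10 ± 0.10 for AKAP9, 0.05 ± 0.08 for ANKRD12, 0.04 ± 0.07 for GOLGA4, 0.03 ± 0.06 for GOLGB1 and 0.00 ± 0.07 for CEP290. CENPE had 57.6, 69.6 and 62.3 CPM in Longan medium and 49.4, 54.2 and 66.8 CPM in Zizyphi medium, so its groups overlapped (0.15 ± 0.09). SELENOW had 116, 120 and 114 CPM in Longan medium and 99.4, 97.8 and 102 CPM in Zizyphi medium, without overlap and close to its high dose difference (0.23 ± 0.04, adjusted p = 0.139, edgeR). ABCG1 differed by 0.30 ± 0.16, ANKDD1A by 0.41 ± 0.14 and TXNIP by -0.05 ± 0.04. At the low dose, where the comparison rests on the Longan low libraries, 4 of the 10 genes had the same sign as at the high dose. There GOLGB1 was called the other way, at -0.30 ± 0.06 (adjusted p = 0.00488, edgeR). CENPE lay at -0.20 ± 0.09 and GOLGA4 at -0.15 ± 0.07, neither called.

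Over the dose range of Zizyphi the same genes are followed next. Zizyphi high against Zizyphi low gave 18 called genes (0.112%), 6 higher (0.0373%) and 12 lower (0.0745%) in Zizyphi high, and 11 without Zizyphi high replicate 1, Zizyphi low replicate 1 or Zizyphi low replicate 3. It shares the 3 Zizyphi high libraries with the comparison above, so its values are given side by side only. CENPE averaged 66.8 ± 2.55, 56.8 ± 8.98 and 37 ± 2.89 CPM at 20, 100 and 500 µg/mL of Zizyphi (SD, n = 3 each), and, with the Longan low libraries as the first value, 58.1 ± 1.25, 63.2 ± 6.05 and 61.9 ± 2.87 CPM at the same doses of Longan. Zizyphi high differed from Zizyphi low by -0.85 ± 0.09 for CENPE (adjusted p = 5.54e-05), -0.72 ± 0.10 for AKAP9 (0.000858), -0.60 ± 0.08 for ANKRD12 (0.00152), -0.59 ± 0.07 for GOLGA4 (0.000214), -0.42 ± 0.07 for CEP290 (0.00618) and -0.37 ± 0.06 for GOLGB1 (0.00266; all edgeR). The same difference was -0.98 ± 0.14 for ANKDD1A (0.0019), -0.30 ± 0.04 for SELENOW (0.000858) and -0.78 ± 0.17 for ABCG1, which was not called (0.114). For TXNIP, Zizyphi high lay 0.21 ± 0.04 above Zizyphi low (adjusted p = 0.0283, edgeR), and Longan high lay below Longan low at -0.16 ± 0.04 (adjusted p = 0.0376, edgeR). GOLGB1 was also called between the Longan doses, at 0.26 ± 0.06 (adjusted p = 0.0135, edgeR), close to the median of 0.235 over all 285 genes of 6000 bases or more in that comparison, and the other 8 genes were not called. These Longan values rest on the Longan low libraries. The medium doses, which do not rest on the Longan low libraries, averaged 51.1 CPM TXNIP with Longan and 53 CPM with Zizyphi.

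Other genes called between the Zizyphi doses were not called between the extracts at the high dose. ALDH3A1, an aldehyde dehydrogenase, averaged 34.9 CPM in Zizyphi high and 26.8 CPM in Zizyphi low (0.38 ± 0.06, adjusted p = 0.00536, edgeR), and its difference between the extracts at the high dose was -0.04. ADGRF1, an adhesion receptor, was called at 0.37 ± 0.05 and ALDH1A3, which makes retinoic acid, at 0.36 ± 0.06 between the Zizyphi doses, with 0.01 for ADGRF1 and 0.14 for ALDH1A3 between the extracts. NOX1, the superoxide-making oxidase of colon epithelium, averaged 11.9 CPM in Zizyphi high and 16.5 CPM in Zizyphi low (-0.47 ± 0.08, adjusted p = 0.0161, edgeR), and had 15.3, 15.9 and 14.3 CPM in Longan high (0.34 ± 0.09 between the extracts, adjusted p = 0.370, edgeR).

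**Figure D4:**
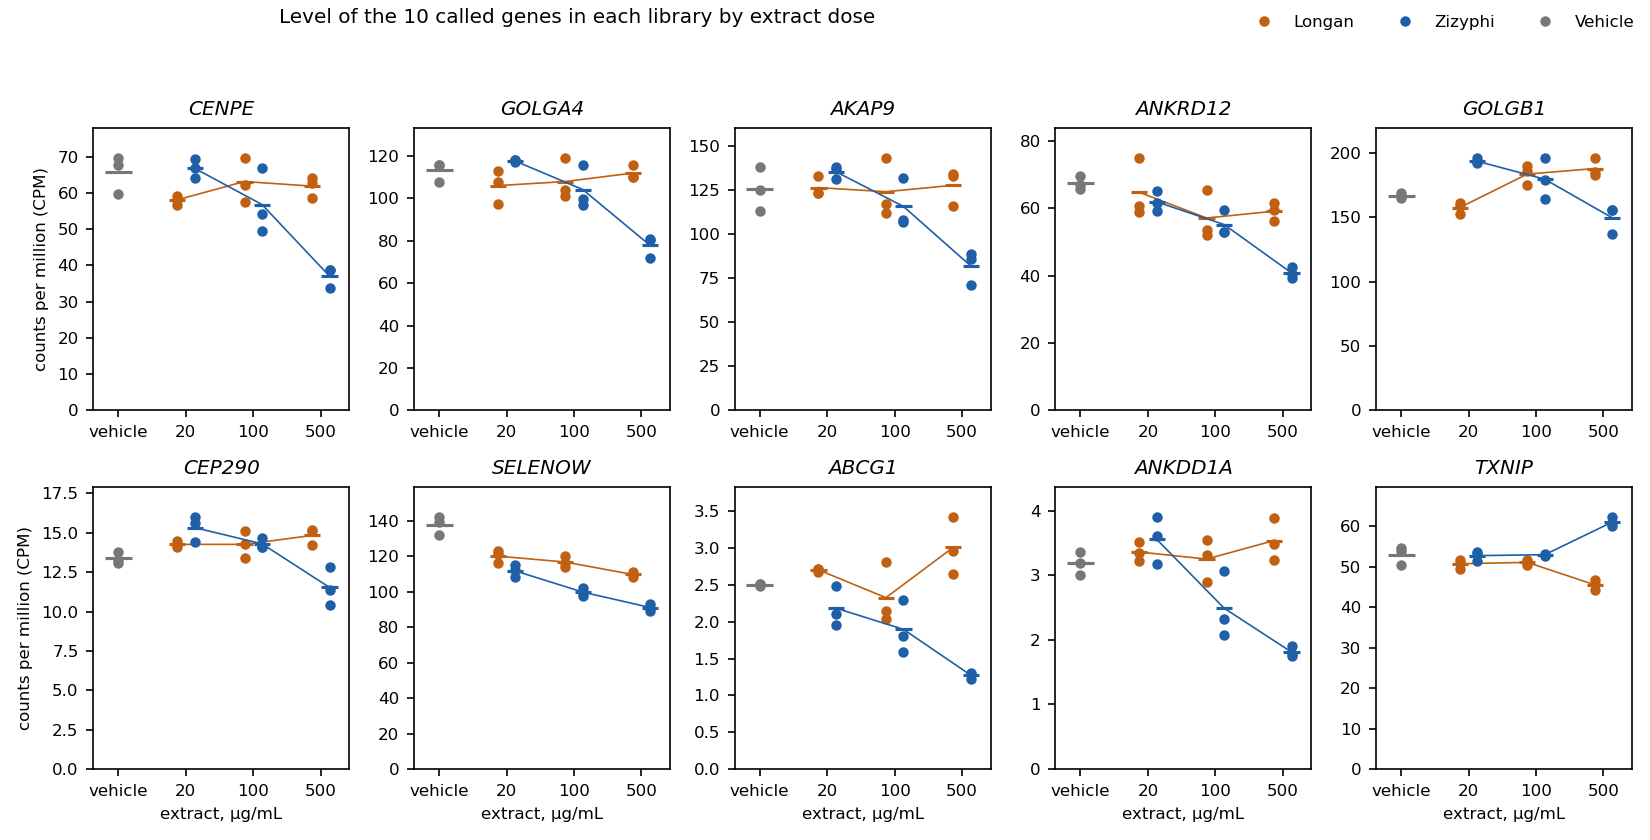
Level of the 10 called genes in CPM (vertical axes, from 0) in each library with vehicle and with 20, 100 and 500 µg/mL of Longan or Zizyphi extract, with group means as bars. At 500 µg/mL the Longan and Zizyphi points do not overlap in any of the 10 genes, and TXNIP is the gene with Zizyphi above Longan.

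Comparisons with the Longan low libraries were much wider. Longan high against Longan low gave 521 called genes (3.24%), 457 higher (2.84%) and 64 lower (0.398%) in Longan high, and Longan low against Zizyphi low 973 (6.04%), 340 higher (2.11%) and 633 lower (3.93%) in Longan low. The first count was 56 without Longan high replicate 1, 68 without Longan low replicate 1 and 237 without Longan high replicate 2. The second was 112 without Longan low replicate 1, and 287, 380 and 376 without Zizyphi low replicate 1, 2 and 3. The difference of the dose changes, Longan high minus low less Zizyphi high minus low, was called for 63 genes (0.391%), 61 positive (0.379%) and 2 negative (0.0124%), and for 9 to 258 when any of its 12 libraries was left out, the highest without Longan low replicate 3. With the medium doses in place of the low doses it was called for 1 gene, TXNIP, at -0.37 ± 0.06 (adjusted p = 0.0306, edgeR). For CENPE this difference was 0.94 ± 0.12 with the low doses (adjusted p = 0.00132, edgeR) and 0.59 ± 0.12 with the medium doses (adjusted p = 0.531, edgeR).

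Between an extract and vehicle the library set differs too and the 2 cannot be told apart, so these values are given side by side. Longan high against vehicle gave 102 called genes (0.634%), 56 higher (0.348%) and 46 lower (0.286%), and Zizyphi high against vehicle 245 (1.52%), 105 higher (0.652%) and 140 lower (0.87%). The vehicle libraries weigh heavily here: without vehicle replicate 1 the counts were 695 for Longan high and 937 for Zizyphi high, and without vehicle replicate 3 they were 20 for Longan high and 42 for Zizyphi high. Leaving out 1 Longan high library gave 26 to 40, and leaving out 1 Zizyphi high library 44 to 90. CENPE lay at -0.09 ± 0.08 in Longan high and -0.82 ± 0.09 in Zizyphi high, AKAP9 at 0.03 ± 0.09 in Longan high and -0.61 ± 0.10 in Zizyphi high, and GOLGA4 at -0.02 ± 0.07 in Longan high and -0.54 ± 0.07 in Zizyphi high. For TXNIP the values were -0.22 ± 0.04 in Longan high and 0.20 ± 0.04 in Zizyphi high, both called (adjusted p = 0.0125 and 0.0139, edgeR). SELENOW was called lower in both, at -0.32 ± 0.04 in Longan high and -0.59 ± 0.04 in Zizyphi high.

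Across the whole series, Zizyphi high held an end position for several of these genes. Its mean was the lowest of 25 groups for GOLGA4, AKAP9, ANKRD12, ANKDD1A and CEP290. GOLGA4 averaged 78.1 CPM there, against 112 CPM in Longan high and 105 CPM in the next lowest group, Zizyphi medium. AKAP9 averaged 82.1 CPM, against 128 CPM in Longan high and 115 CPM in the next lowest group, Soshiho-tang high. For GOLGA4, AKAP9, ANKRD12 and ANKDD1A, 0 of the other 57 libraries lay below the highest Zizyphi high library. For TXNIP, Zizyphi high was the highest of 25 groups at 61.3 CPM, against 45.7 CPM in Longan high and 53.5 CPM with vehicle, the next highest group, and 0 of 57 libraries lay above its lowest library. CENPE, at 37.2 CPM in Zizyphi high, was lower in Aucklandiae high at 29.1 CPM and in Polygalae high at 33.9 CPM, groups of 1 library each. Polygalae high was also lower than Zizyphi high for GOLGB1, at 122 CPM against 150 CPM, and for ABCG1, at 0.728 CPM against 1.28 CPM. SELENOW averaged 91.3 CPM in Zizyphi high. It was lower in Aucklandiae high (75.7 CPM), Schisandrae high (87.8 CPM) and Soshiho-tang high (88.3 CPM). Some other groups spread widely between their own libraries in the long genes: CENPE ran from 46.1 to 82.8 CPM in Liriopis high and from 49.3 to 80.8 CPM in Schisandrae high, and AKAP9 from 96.8 to 150 CPM in Liriopis high and from 101 to 160 CPM in Liriopis medium. Longan high stood inside the range of the other groups, at rank 10 of 25 from the lowest for CENPE and GOLGA4 and rank 7 for TXNIP. For ABCG1 it was near the upper end, at rank 24 with 3.02 CPM, below Aucklandiae high alone at 10 CPM (1 library). For the other called genes its rank ran from 6 (ANKRD12) to 19 (ANKDD1A). The groups outside set 10 differ in library set as well as extract.

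**Figure D5:**
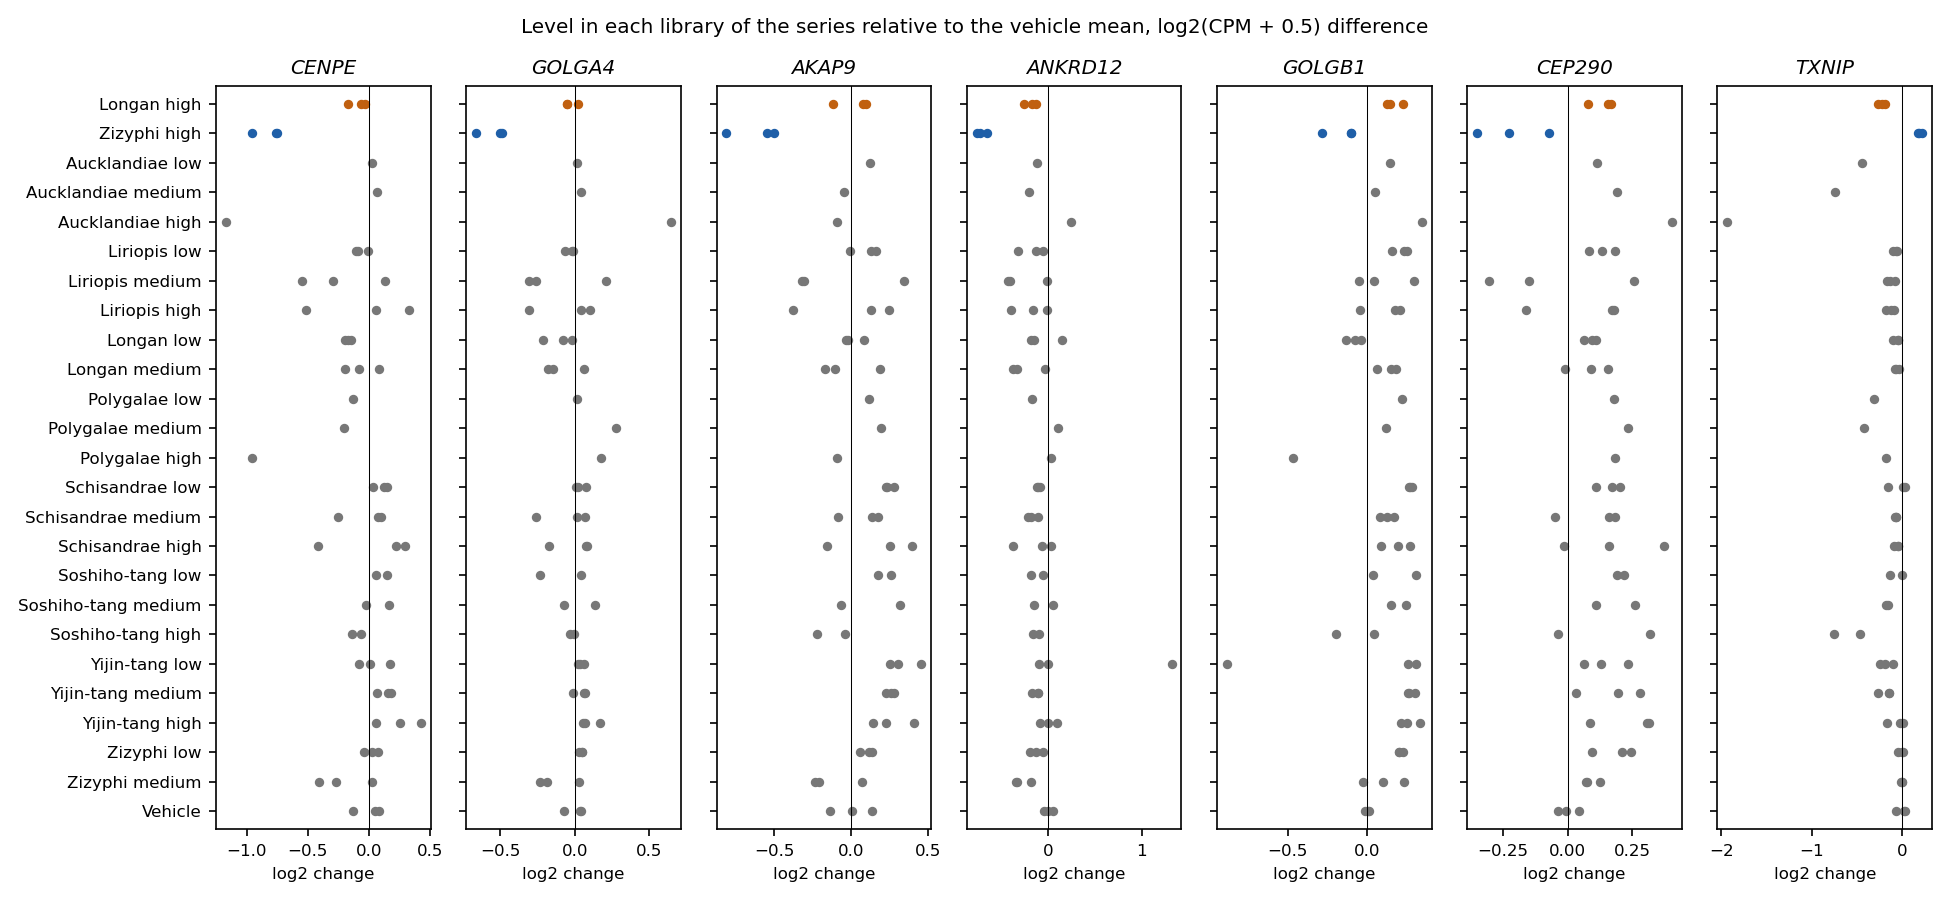
Level of the 6 long genes and TXNIP in every library, as the difference from the vehicle mean on the log2(CPM + 0.5) scale, by group. The 3 Zizyphi high libraries lie left of all other libraries for GOLGA4, AKAP9 and ANKRD12 and right of all others for TXNIP.

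The called genes lie on 9 chromosomes, and their positions are from GENCODE release 29 on GRCh38. TXNIP (ENSG00000265972) is at 145992435 to 145996600 on chromosome 1, GOLGA4 (ENSG00000144674) at 37243177 to 37366751 and GOLGB1 (ENSG00000173230) at 121663199 to 121749767 on chromosome 3, CENPE (ENSG00000138778) at 103105806 to 103198409 on chromosome 4 and AKAP9 (ENSG00000127914) at 91940867 to 92110673 on chromosome 7. CEP290 (ENSG00000198707) is at 88049014 to 88142216 on chromosome 12, ANKDD1A (ENSG00000166839) at 64911902 to 64958700 on chromosome 15, ANKRD12 (ENSG00000101745) at 9136228 to 9285985 on chromosome 18, SELENOW (ENSG00000178980) at 47778572 to 47784686 on chromosome 19 and ABCG1 (ENSG00000160179) at 42199689 to 42297244 on chromosome 21.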

How the data were processed

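RNA-seq libraries of HT29 cells were prepared with a directional mRNA kit and sequenced as 100 bp paired ends, per the labels' protocols. The authors deposited expected counts per gene (estimated counts, not normalized) for 60675 genes in 60 libraries. Per the submitters' processing notes, RSEM 1.3.3, STAR 2.7.3a, Trim Galore 0.6.5 and FastQC 0.11.9 were used with GRCh38, and the annotation release and strand setting are not given in the sources used here. Of the deposited estimated counts, 89.9% were whole to within 1e-09. They were rounded here. Estimated counts split reads between overlapping genes. For each overlapping gene taken singly, 1.04% to 6.11% of the exon bases of ANKDD1A, ANKRD12, CEP290 and GOLGA4 lie in that gene as well. ANKDD1A overlaps several genes, by 3.93%, 6.11% and 3.75%, and ANKRD12 does so by 2.24% and 1.04%. These shares were not summed per gene.

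The fit (edgeR 4.0.16, R 4.3.3) used 21 libraries in 7 groups: both extracts at 3 doses and vehicle. filterByExpr kept 16100 genes, TMM scaled the libraries, and glmQLFit with glmQLFTest gave each contrast from the group alone. CPM values use the TMM-scaled library sizes and are not per length, so they are compared between libraries and not between genes. SE is the log2 fold change over the square root of F. Totals ran from 18161717 to 35128954 counts per library over the series. The same steps were tested on simulated data. Within a group no pair of libraries agreed within sampling noise.

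Named genes were the called genes with at least 5 CPM in 1 group and no overlap between the groups, at most 12 each way, up to 4 called genes per list, all members of a described list with at most 12 tested genes, and the 3 largest each way in other comparisons with called genes. ANKDD1A and other genes outside this rule were named after their values were seen, as were GCC2, TRIP11, MYH9, NUMA1, MKI67, TOP2A, OAS1, HSPA5, CENPF, SCD, NOX1, AKR1C1, SELENOH, GPX1 and GPX4. BRCA2, BDP1 and PCM1 were named in the same way. The 3 largest of the comparisons with Longan low and with vehicle are not described. The members and the lists were chosen with earlier results of these data known. Coding length and adenine content are those of the annotated transcript with the longest coding sequence, for genes at 5 CPM or more on average. Levels across the series were scaled by TMM over 60 libraries. Alternatives were RLE scaling, DESeq2 1.42.0, no filter, other sets of libraries in the fit, a replicate block, leaving out each replicate and, for fold changes alone, a prior count of 2.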

Additional observations from a re-analysis of the deposited data

Results flagged for a closer look

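The change between high and low dose differed between the extracts for 63 genes, by the test of that difference within the fit. Among the genes called between the extracts at the high dose, the difference of the dose changes (Longan minus Zizyphi, log2) was -0.36 for TXNIP, 0.94 for CENPE, 0.67 for GOLGA4, 1.05 for ANKDD1A, 0.74 for AKAP9, 0.62 for GOLGB1 and 0.47 for CEP290. These values rest on the Longan low libraries, of which replicates 1 and 2 stand apart in their long genes. With the medium doses in their place the differences were -0.37 for TXNIP, 0.59 for CENPE, 0.48 for GOLGA4, 0.54 for ANKDD1A, 0.54 for AKAP9, 0.29 for GOLGB1 and 0.37 for CEP290, and TXNIP alone was called (adjusted p = 0.0306, edgeR). The part of the Longan low libraries in the 63 calls was not tested beyond this.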

How the results depend on the processing

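For Longan high against Zizyphi high, with 10 genes called, the number was 115 without the filter, 4 with 54 libraries in the fit and 6 to 10 when 1 of its replicates was left out. Fitted on the compared groups alone it was 15, 11 higher and 4 lower in Longan high, and 9 of these were among the 10. Of the 115, 12 had not passed the filter and 93 had been tested and not called. All 10 kept their direction in the 14 alternative fits and with a prior count of 2, which changes fold changes and no p. TXNIP, ABCG1, GOLGA4 and ANKDD1A stayed called in each of the 14 fits, CENPE and SELENOW were lost in 1 (54 libraries, adjusted p = 0.0851 and 1), AKAP9 in 3, ANKRD12 and GOLGB1 in 4 and CEP290 in 11. The deviations of same-numbered libraries of the 2 extracts had correlations of -0.12, 0.13 and -0.15, and the main fit did not pair them. Pairing in single genes was not tested. In CENPE and AKAP9 replicate 1 was the lowest library of both extracts at the high and the medium dose. In CEP290 the lowest were replicate 3 of Longan high and replicate 2 of Zizyphi high. A fit with the replicate block called 9 genes (CEP290 lost, adjusted p = 0.0943, edgeR).

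Without the filter, the counts were 155 for the medium doses, 968 for Longan high against low, 110 for Zizyphi high against low, 378 for the difference of the dose changes, 532 for Longan high against vehicle and 620 for Zizyphi high against vehicle. With 54 libraries they were 0 for the low doses, 3 and 9 for high against low with Longan and with Zizyphi, 0 for the difference of the dose changes, and 14 and 27 against vehicle for Longan high and Zizyphi high. With 52 libraries, leaving out Yijin-tang low replicate 2 and Soshiho-tang high replicate 3, a choice made after seeing the data, they were 1, 1472, 944, 42, 246, 384 and 546 for the medium doses, the low doses, Longan high against low, Zizyphi high against low, the difference of the dose changes, and Longan high and Zizyphi high against vehicle. Fitted on the compared groups alone, the same 7 counts were 5, 90, 9, 45, 23, 5 and 24. DESeq2 gave 1 for the medium doses, 845 and 33 for high against low with Longan and with Zizyphi, 179 for the difference of the dose changes, and 306 and 453 against vehicle. The medium in place of the low dose, also chosen after seeing the data, gave 1 for the difference of the dose changes. Leaving out 1 replicate gave 0 to 3 for the medium doses, 112 to 1410 for the low doses, 56 to 775 for Longan high against low, 11 to 15 for Zizyphi high against low, 9 to 258 for the difference of the dose changes, 20 to 695 for Longan high against vehicle and 42 to 937 for Zizyphi high against vehicle. The cause of these shifts was not tested.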
